A study of Mus musculus with 8 samples.

Results

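Genes that mark injury or dedifferentiation of the renal tubule were followed in kidneys of mice given bisphenol A (BPA), from which polycarbonate plastic is made, or vehicle. The 10 genes are Havcr1, Lcn2, Spp1, Clu, Krt8, Krt18, Vim, Cd44, Lgals3 and Vcam1, chosen by name from the 54532 genes of the expression table, where each name occurs once. Libraries of polyadenylated RNA from ICR mice, an outbred stock, formed 4 BPA and 4 vehicle samples, and none of dose, route, duration, age or the nature of the vehicle is given in the sources used here. Whether each library is a separate animal is not stated either, so the p-values below measure the spread between libraries, which may be technical in part or whole.

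When the proximal tubule is damaged, its cells lose their brush border, spread over the bare basement membrane and later divide, and during this they switch on genes that the resting tubule keeps low. Havcr1 (KIM-1) and Lcn2 (NGAL) are used as urinary markers of acute kidney injury. Spp1, Clu and Lgals3 encode secreted proteins that are abundant around injured tubules, Krt8, Krt18 and Vim encode intermediate filaments of a simple epithelium and of mesenchymal cells, and Cd44 and Vcam1 encode adhesion molecules. Several of them also have sources in an uninjured kidney: Spp1 in the loop of Henle, Krt8 and Krt18 in the distal nephron and collecting duct, and Vim, Cd44, Lgals3 and Vcam1 in leukocytes, endothelium, stroma or glomeruli. In whole tissue, fewer cells of a type and less RNA per cell cannot be told apart.

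Reads recovered from the table numbered 16178630 to 17226655 per BPA library and 15944081 to 17351540 per vehicle library. The tissue label was checked against 5 proximal tubule markers (Slc34a1, Lrp2, Cubn, Slc5a2 and Slc22a6), whose FPKM (reads scaled by gene length and library size) summed to 1475 to 2104 in BPA and 1786 to 2041 in vehicle. The libraries labelled vehicle replicate 4, vehicle replicate 2 and BPA replicate 4 differed from the others in the ways given next. The part of these features in the levels of the 10 genes was not tested, beyond values with a library left out. Vehicle replicate 4 held transcripts of other tissues: skeletal muscle markers summed to 226 FPKM there and to at most 0.224 FPKM in the other vehicle libraries and 0.327 FPKM in BPA, and the B cell gene Cd79a was at 17.1 FPKM there and at most 1.14 FPKM elsewhere. Vehicle replicate 2 had the highest sum of urothelial markers, at 7.58 FPKM, where BPA libraries had at most 0.770 FPKM and the other vehicle libraries at most 2.31 FPKM. Its adipocyte markers summed to 92.9 FPKM, second to 296 FPKM in vehicle replicate 4, with at most 21.3 FPKM in BPA and 32.7 FPKM in vehicle replicates 1 and 3. In BPA replicate 4 only 17174 genes were above 0, the lowest number, whereas BPA replicates 1 to 3 had 19090 to 20502 and the vehicle libraries 19693 to 20845. Mitochondrially encoded transcripts took 9.66 to 14.2% of reads in BPA, highest in replicate 4, and 7.02 to 8.33% in vehicle.

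The sequences below show the start regions of Spp1, the most abundant of the 10 genes and the one with the largest difference between the groups, and of the keratin partners Krt8 and Krt18. The start regions of these 3 genes are from RefSeq on GRCm38.p6, which has an entry for 8 of the 10 genes, and are shown up to the RefSeq start (Spp1) or up to the first GENCODE M21 exon where that begins earlier (Krt8 and Krt18). Capitals mark a match to a TATA box (TATAAA) or a CCAAT box (CCAAT) on either strand. Spp1 is shown from chr5:104434861-104435110 on the plus strand, Krt8 from chr15:102004483-102004592 on the minus strand and Krt18 from chr15:102027966-102028179 on the plus strand.
Spp1: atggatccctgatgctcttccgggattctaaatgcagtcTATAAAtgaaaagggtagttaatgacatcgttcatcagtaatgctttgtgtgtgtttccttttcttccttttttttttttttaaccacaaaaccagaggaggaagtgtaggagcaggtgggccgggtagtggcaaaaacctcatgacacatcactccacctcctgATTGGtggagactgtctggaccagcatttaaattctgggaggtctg
Krt8: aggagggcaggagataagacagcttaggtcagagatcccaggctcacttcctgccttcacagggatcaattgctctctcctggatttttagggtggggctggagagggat
Krt18: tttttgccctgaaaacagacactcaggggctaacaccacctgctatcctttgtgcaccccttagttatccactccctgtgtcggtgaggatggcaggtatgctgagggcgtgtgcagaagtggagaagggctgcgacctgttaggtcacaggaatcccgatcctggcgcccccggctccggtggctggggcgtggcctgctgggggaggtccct

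In the whole RefSeq windows, which also hold bases after the start, TATAAA was found in Vim, Spp1 and Krt8 and in 13.6% of the 32851 windows of all genes. CCAAT was found in Vim, Spp1 and Lgals3 (37.4% of all windows), and a GC box (GGGCGG) in Lcn2, Cd44 and Lgals3 (35.7%). The AP-1 motif TGANTCA, read on both strands like the others, was found among these genes in Havcr1 (7.81% of all windows). The match in Krt8 spans its RefSeq start and lies outside the stretch printed above. None of these motifs contains another, and a match describes sequence and is not a bound site.

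All 10 are protein-coding, and their coordinates in the table (GRCm38) are those of GENCODE M21. Lcn2 (ENSMUSG00000026822) is at chr2:32384633-32388252, Vim (ENSMUSG00000026728) at chr2:13573927-13582826 and Cd44 (ENSMUSG00000005087) at chr2:102811141-102901665. Vcam1 (ENSMUSG00000027962) is at chr3:116109949-116129688, Spp1 (ENSMUSG00000029304) at chr5:104435118-104441050 and Havcr1 (ENSMUSG00000040405) at chr11:46735080-46779578. Lgals3 (ENSMUSG00000050335) is at chr14:47367751-47386160, Clu (ENSMUSG00000022037) at chr14:65968483-65981547, Krt8 (ENSMUSG00000049382) at chr15:101996698-102004482 and Krt18 (ENSMUSG00000023043) at chr15:102028180-102032027. Exons of 3 of them share bases with another annotated gene: Spp1 with Gm42793 on the same strand, Krt8 with Gm36026 and Vcam1 with Gm43109 on the opposite strand. These 3 overlapping genes reached at most 0.138 FPKM in any library, and whether reads were counted by strand is not given in the sources used here. The GC content of the longest transcript ran from 40.1% in Vcam1 to 57.1% in Krt8.

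The 10 genes spanned a wide range of levels. Spp1 was highest, at 177 FPKM on average over the 8 libraries, and ranked 233 among 13376 genes with a mean of at least 0.5 FPKM. Krt8 followed at 51.9 FPKM and Clu at 40.7 FPKM, then Lgals3 at 9.48, Vim at 7.20 and Krt18 at 5.83 FPKM. Havcr1 was at 1.74 FPKM (rank 9944) and Vcam1 at 0.712 FPKM (rank 12440). Cd44 at 0.378 FPKM and Lcn2 at 0.222 FPKM did not reach the 0.5 FPKM minimum, so 8 of the 10 entered the test over all genes. Clu and Lgals3, Krt18 and Havcr1, and Havcr1 and Vcam1 were neighbours in this order whose values over the 8 libraries did not overlap, whereas all other neighbours overlapped. FPKM divides by the length of all exons together, 8870 bases in Vcam1 and 6776 in Cd44, so genes with long alternative exons read low on this scale.

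**Figure D1:**
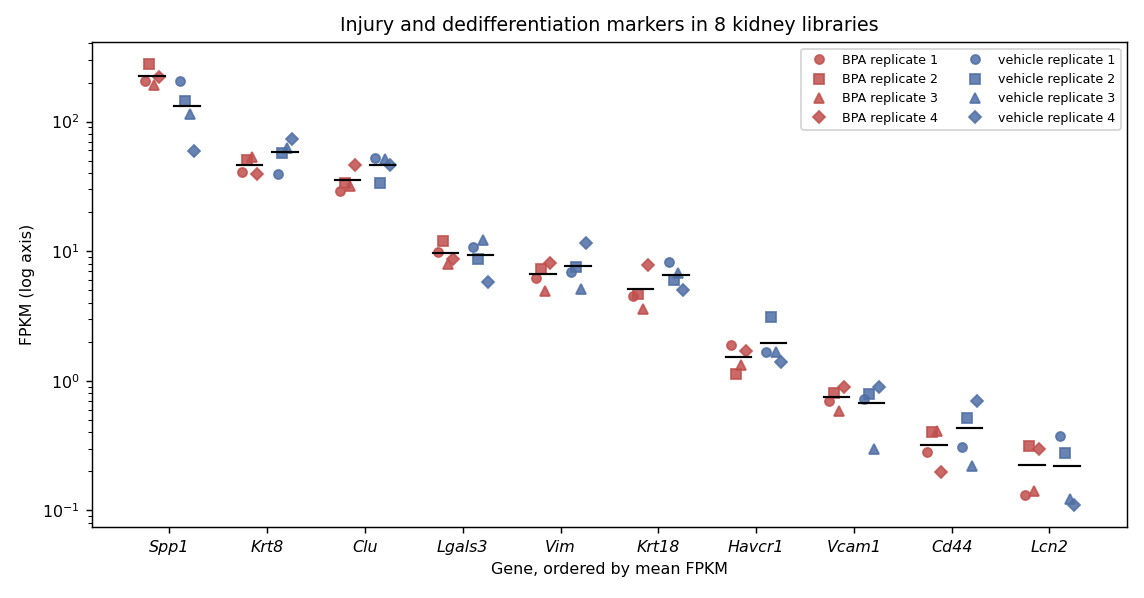
FPKM (log axis) of the 10 marker genes in each of 4 BPA (red, left) and 4 vehicle (blue, right) kidney libraries, with the group mean as a black bar. Spp1 lies between 193 and 276 FPKM in BPA and between 59.6 and 205 FPKM in vehicle, and for every gene the values of the groups overlap.

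The comparison asked whether BPA kidneys carried more or less of these transcripts than vehicle kidneys. None of the 8 tested genes passed limma's test on log2(FPKM + 1) at a Benjamini-Hochberg adjusted p under 0.05 over all 13376 genes, where 1 gene (0.00748%) passed. Spp1 alone had an unadjusted p under 0.05, against 11% of all genes in either direction (4.18% higher and 6.83% lower in BPA). Limma-voom on the recovered reads likewise called 0 of the 8, beside 1 with an unadjusted p under 0.05. Among the 8, BPA was above vehicle in 3 and below it in 5, the median difference was -0.19 on the log2 scale, and 48.0% of all tested genes were higher and their median was -0.01. In none of the 10 genes were the groups apart without overlap, which 7.89% of all tested genes were (3.23% higher and 4.66% lower in BPA), and 27 of the 40 BPA values lay inside the range of the 4 vehicle values.

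**Figure D2:**
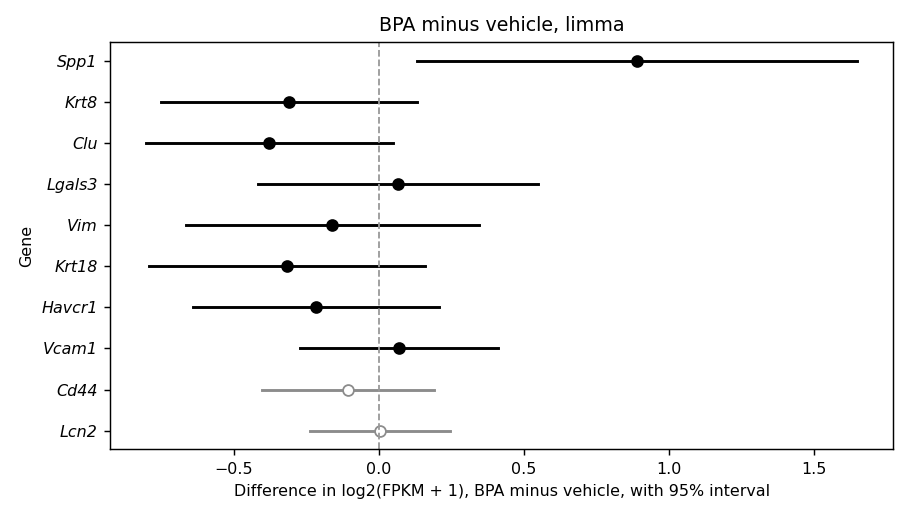
Difference in log2(FPKM + 1), BPA minus vehicle, of each marker gene with its 95% interval from limma; Cd44 and Lcn2 (open grey points) were below the 0.5 FPKM minimum and come from a fit with no minimum. The interval of Spp1, 0.13 to 1.65, lies above 0, and the other 9 intervals include 0.

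Havcr1 encodes a phosphatidylserine receptor that lets injured proximal tubule cells take up dead neighbours, and it is nearly silent in healthy tubules. It was at 1.90, 1.13, 1.33 and 1.70 FPKM in the 4 BPA libraries and at 1.68, 3.12, 1.68 and 1.40 FPKM in the 4 vehicle libraries. The highest value was in vehicle replicate 2, the only library above 2 FPKM, and all 4 BPA libraries were below the vehicle mean, which that library raised. BPA replicates 1 and 4 were above vehicle replicates 1, 3 and 4. The difference was -0.22 (SE 0.187, 95% interval -0.64 to 0.21, limma adjusted p = 0.649). Without vehicle replicate 2, the library that also had the highest urothelial sum (7.58 FPKM) and a raised adipocyte sum (92.9 FPKM), it was -0.05 (limma adjusted p = 0.905); the part of those markers in the Havcr1 value was not tested. Leaving out BPA replicate 2 gave -0.14 (adjusted p = 0.774) and leaving out both replicates 4 gave -0.35 (adjusted p = 0.673). Its level rested on 235 reads over BPA and 316 over vehicle.

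Lcn2 encodes a lipocalin that binds bacterial siderophores and is strongly induced in injured distal tubules. In both groups it was counted in few reads, with 6, 14, 6 and 13 reads in the BPA libraries and 18, 13, 5 and 5 reads in the vehicle libraries. These reads correspond to 0.222 ± 0.0995 FPKM in BPA and 0.221 ± 0.127 FPKM in vehicle (SD, n = 4 each). The groups overlapped fully: all 4 BPA values lay inside the vehicle range. In a limma fit with no minimum the difference was 0.00 (95% interval -0.24 to 0.24, adjusted p = 0.996). The pseudocount of 1 is larger than the level of the gene, so this scale compresses its differences, and a change of Lcn2 smaller than the scatter of these counts was not detectable at this depth. Slc22a17, its cell surface receptor, was at 4.07 ± 0.833 FPKM in BPA and 5.11 ± 0.612 FPKM in vehicle (difference -0.28, limma adjusted p = 0.483). Lrp2 (megalin), which takes up filtered lipocalin in the proximal tubule, was at 191 FPKM in BPA and 165 FPKM in vehicle on average.

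Spp1 encodes osteopontin, a secreted phosphoprotein that binds integrins and CD44 and hinders calcium crystals in urine. It was at 206, 276, 193 and 220 FPKM in the BPA libraries and at 205, 143, 115 and 59.6 FPKM in the vehicle libraries. BPA replicates 1, 2 and 4 exceeded the highest vehicle library, BPA replicate 3 did not, and vehicle replicate 4 was lowest of all 8. The mean was 224 ± 36.8 FPKM in BPA and 131 ± 60.6 FPKM in vehicle (SD, n = 4 each), 1.71 times as high in BPA. The difference on the log2(FPKM + 1) scale was 0.89 (SE 0.334, 95% interval 0.13 to 1.65), with limma adjusted p = 0.408 and unadjusted p = 0.0265. Without vehicle replicate 4 the difference was 0.56 (limma adjusted p = 0.609), and without both replicates 4 it was also 0.56 (adjusted p = 0.575). After a correction for transcript GC content it was 0.80 (limma adjusted p = 0.657). Taken apart, replicates 1 and 2 gave 0.48 and replicates 3 and 4 gave 1.30; this division of the libraries is not a group of the study.

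Transcripts of the thick ascending limb, a part of the loop of Henle, varied between the same libraries. The sum of Umod, Slc12a1, Cldn16 and Cldn10 was 636, 708, 382 and 391 FPKM in the BPA libraries and 508, 547, 633 and 192 FPKM in the vehicle libraries. Vehicle replicate 4 was lowest for this sum as it was for Spp1, and BPA replicate 2 was highest for both, but vehicle replicate 3 had a high sum beside a low Spp1. BPA replicates 3 and 4 had lower sums than vehicle replicates 2 and 3 but higher Spp1 (193 and 220 against 143 and 115 FPKM). The mean log2 level of the 4 markers differed by 0.24 between the groups (exact permutation p = 0.629, adjusted p = 0.943 over 12 marker lists), with 3 of the 4 higher in BPA and none at 0. The part of the thick limb markers in the difference of Spp1 was not tested.

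Of the receptors of osteopontin, the integrin subunit Itgav was at 27.1, 18.5, 28.7 and 21.8 FPKM in the BPA libraries and at 19.6, 19.5, 14.8 and 18.6 FPKM in the vehicle libraries. BPA replicates 1, 3 and 4 lay above every vehicle library and BPA replicate 2 lay below vehicle replicates 1, 2 and 4, and the difference of 0.38 had a limma adjusted p of 0.440. The genes whose pattern over the 8 libraries was nearest to that of Spp1, by the root-mean-square difference of mean-centred log2 values among 10318 protein-coding genes, were Hpgd (0.230), Bgn (0.253) and Itga8 (0.284), against a median of 0.687 over all candidates. Hpgd encodes a prostaglandin-degrading enzyme, Bgn the matrix proteoglycan biglycan and Itga8 an integrin subunit. They were chosen for their likeness, so their own group difference is not a further result.

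**Figure D3:**
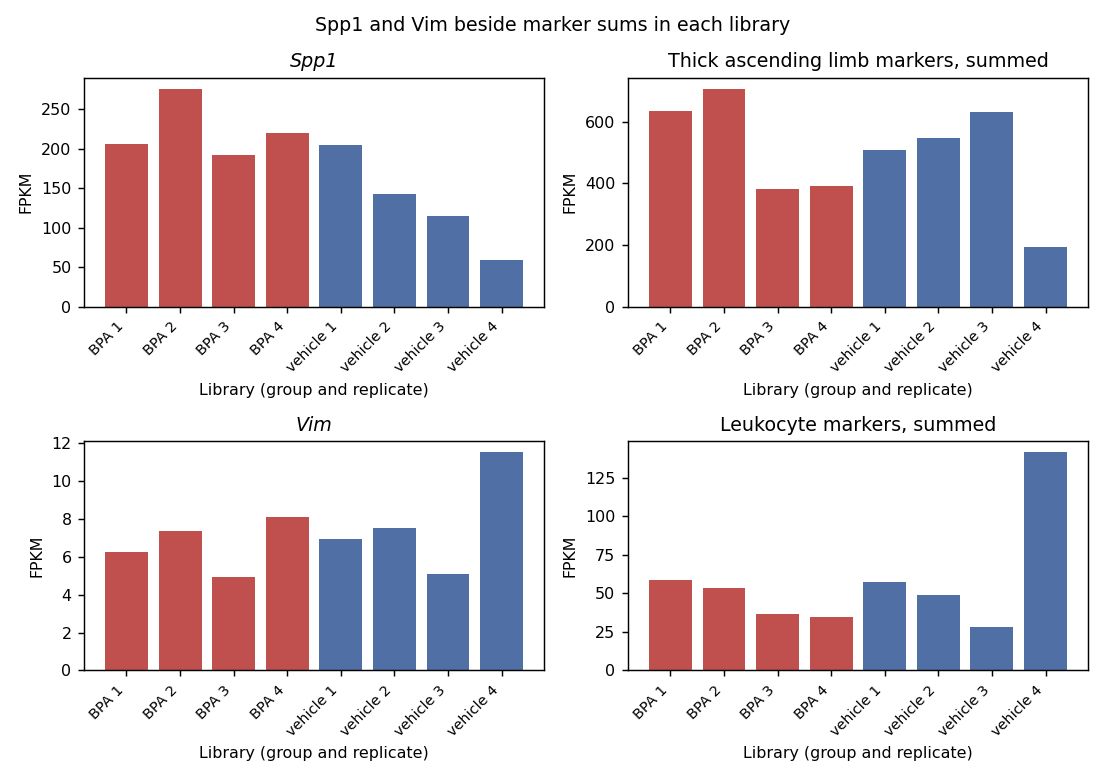
FPKM of Spp1 and Vim and the summed FPKM of 4 thick ascending limb markers and 15 leukocyte markers in each library (BPA red, vehicle blue). Vehicle replicate 4 has the lowest Spp1 (59.6 FPKM) and thick limb sum (192 FPKM) and the highest Vim (11.5 FPKM) and leukocyte sum (142 FPKM).

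Clu encodes clusterin, an extracellular chaperone that binds misfolded protein and cell debris. It was at 28.9, 33.8, 32.0 and 46.5 FPKM in the BPA libraries and at 52.7, 33.8, 51.6 and 46.4 FPKM in the vehicle libraries. BPA replicates 1 to 3 lay at or below 33.8 FPKM, a level shared by vehicle replicate 2 alone, while BPA replicate 4 was at the level of vehicle replicate 4. The difference was -0.38 (SE 0.187, 95% interval -0.80 to 0.05, limma adjusted p = 0.478). Replicates 1 and 2 alone gave -0.42 and replicates 3 and 4 alone -0.33, and the difference was -0.25 after a correction for transcript GC content (adjusted p = 0.735), which moved the value by over 1.5 times.

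Krt8 and Krt18 encode the type II and type I keratins that pair to form the filaments of simple epithelia, and their genes are neighbours on chromosome 15 in divergent orientation, 23697 bases apart. Krt8 was at 40.7, 50.5, 52.9 and 39.3 FPKM in the BPA libraries and at 39.5, 56.8, 62.7 and 72.9 FPKM in the vehicle libraries. Vehicle replicates 2 to 4 were above every BPA library, and vehicle replicate 1 was among the lowest. The difference was -0.31 (SE 0.195, 95% interval -0.75 to 0.13, limma adjusted p = 0.545). It was -0.19 without vehicle replicate 4 (adjusted p = 0.781), -0.48 without vehicle replicate 1 (adjusted p = 0.557), -0.12 without both replicates 4 (adjusted p = 0.874) and -0.16 after the GC correction (adjusted p = 0.818), each a shift by over 1.5 times.

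Krt18 was at 4.53, 4.66, 3.59 and 7.79 FPKM in the BPA libraries and at 8.24, 6.03, 6.75 and 5.05 FPKM in the vehicle libraries. BPA replicates 1 to 3 were below every vehicle library, and BPA replicate 4 was second only to vehicle replicate 1. The difference was -0.32 (SE 0.210, 95% interval -0.79 to 0.16, limma adjusted p = 0.561). Without BPA replicate 4 it was -0.50 (adjusted p = 0.423), without both replicates 4 it was -0.60 (adjusted p = 0.447), without BPA replicate 3 it was -0.19 (adjusted p = 0.728), and after the GC correction -0.18 (adjusted p = 0.826). With limma's library weights it was -0.49 (adjusted p = 0.248).

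Although both keratins had a negative difference, they did not vary together over the libraries. The ratio of Krt8 to Krt18 in FPKM was 8.98, 10.9, 14.7 and 5.04 in the BPA libraries and 4.80, 9.42, 9.30 and 14.4 in the vehicle libraries. Krt8 was thus several times as high as its partner in every library, and the ratio spread about as widely in each group. Its log2 differed by 0.06 between the groups (2-sided exact permutation p = 0.8, 4 against 4 libraries). Krt8 shares 98.6% identity over 941 bases with the processed pseudogene Krt8-ps, which was at 0.218 FPKM on average, and Krt18 shares 90.4% identity with the pseudogene Gm5200 and 86.5% with Gm17847, both listed at 0. The handling of reads with several matches is not given in the sources used here, so the levels of both keratins carry that uncertainty.

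The genes nearest to Krt18 in pattern were Cables1 (root-mean-square difference 0.117), Isyna1 (0.136) and Evc (0.137), against a median of 0.394 over all candidates. Those nearest to Clu were Nup62 (0.0933), Dda1 (0.128) and Banp (0.144), against 0.378. Both sets hold genes of unrelated textbook roles, such as a nucleoporin (Nup62) and the enzyme that makes inositol phosphate from glucose phosphate (Isyna1).

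**Figure D4:**
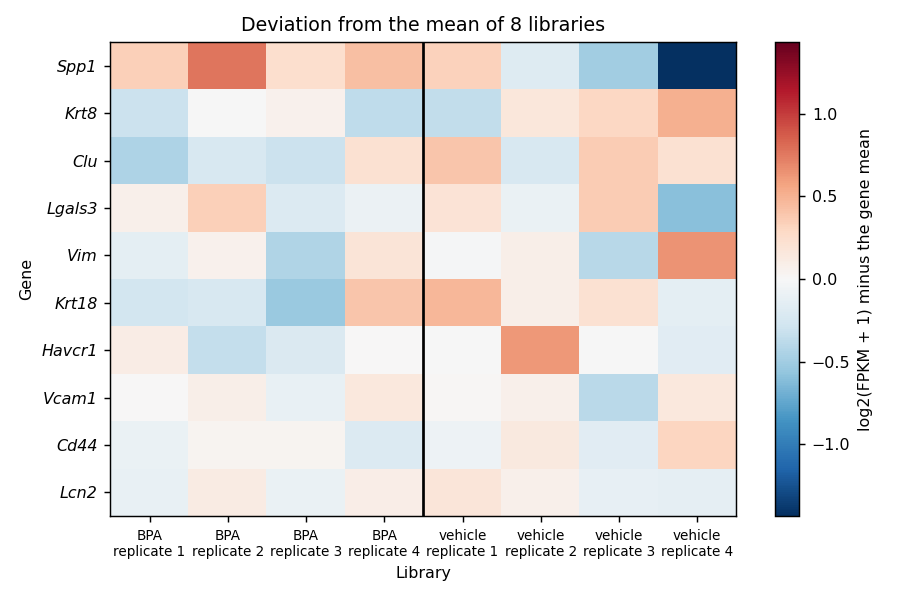
Deviation of each marker gene from its own mean over the 8 libraries, in log2(FPKM + 1), with BPA libraries left of the line and vehicle libraries right of it. Red is above and blue below the mean; Spp1 is lowest in vehicle replicate 4, where Krt8, Vim and Cd44 are highest, and Havcr1 is highest in vehicle replicate 2.

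Vim encodes vimentin, the filament of mesenchymal cells, endothelium, leukocytes and podocytes, which regenerating tubule cells also express. It was at 6.25, 7.34, 4.95 and 8.09 FPKM in the BPA libraries and at 6.93, 7.49, 5.07 and 11.5 FPKM in the vehicle libraries. Apart from vehicle replicate 4 the groups covered almost the same range, and replicate 3 was the lowest library in each. The difference was -0.16 (SE 0.223, 95% interval -0.67 to 0.34, limma adjusted p = 0.784), and without vehicle replicate 4 it was 0.027 (adjusted p = 0.975). Without vehicle replicate 3 it was -0.32 (adjusted p = 0.672), without BPA replicate 3 it was -0.05 (adjusted p = 0.949), without BPA replicate 4 it was -0.25 (adjusted p = 0.734) and without both replicates 4 it was -0.06 (adjusted p = 0.927). Nearest to Vim in pattern were Sipa1 (0.101), Rasa3 (0.118) and Cnp (0.123), against a median of 0.392 over all candidates, and Sipa1 and Rasa3 encode GTPase-activating proteins.

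Cd44 encodes the receptor for hyaluronan, a matrix sugar polymer, and binds osteopontin as well. It was at 0.281, 0.402, 0.408 and 0.196 FPKM in the BPA libraries and at 0.306, 0.512, 0.219 and 0.697 FPKM in the vehicle libraries, from 146 reads over BPA and 205 over vehicle. The highest values were in vehicle replicates 4 and 2, and the groups overlapped in most of their range. In the limma fit with no minimum the difference was -0.11 (SE 0.130, 95% interval -0.41 to 0.19, adjusted p = 0.751). Hyal2, a hyaluronidase, was at 17.0, 14.9, 14.6 and 17.4 FPKM in the BPA libraries and at 21.5, 17.7, 20.4 and 21.5 FPKM in the vehicle libraries. Every BPA library was below every vehicle library for Hyal2, an arrangement in that direction that 4.66% of all tested genes had. The difference of -0.32 did not pass limma's test (adjusted p = 0.380).

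Lgals3 encodes galectin-3, a lectin of macrophages and of injured and collecting duct epithelium. It was at 9.77, 12.0, 7.97 and 8.66 FPKM in the BPA libraries and at 10.8, 8.64, 12.2 and 5.80 FPKM in the vehicle libraries. All 4 BPA values lay inside the vehicle range. The difference was 0.07 (SE 0.212, 95% interval -0.42 to 0.55, limma adjusted p = 0.913), and it was -0.12 without vehicle replicate 4 (adjusted p = 0.837), -0.082 without both replicates 4 and -0.039 without BPA replicate 2. Leaving out other single libraries gave 0.142 for vehicle replicate 1, 0.197 for vehicle replicate 3, 0.142 for BPA replicate 3 and 0.106 for BPA replicate 4. The GC correction gave 0.188 (adjusted p = 0.804), a common total of recovered reads 0.033 (adjusted p = 0.958) and quantile normalization 0.105 (adjusted p = 0.855).

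Vcam1 encodes an adhesion molecule that holds leukocytes carrying the integrin of Itga4 and Itgb1, and in mouse it marks proximal tubule cells that fail to repair. It was at 0.702, 0.808, 0.582 and 0.894 FPKM in the BPA libraries and at 0.720, 0.795, 0.299 and 0.896 FPKM in the vehicle libraries. The groups covered the same range except for the low value of vehicle replicate 3. The difference was 0.07 (SE 0.150, 95% interval -0.27 to 0.41, limma adjusted p = 0.867), and -0.049 without vehicle replicate 3 (adjusted p = 0.919) and -0.052 after the GC correction (adjusted p = 0.933). Leaving out other single libraries gave 0.133 for vehicle replicate 4, 0.107 for vehicle replicate 2, 0.116 for BPA replicate 3 and 0.029 for BPA replicate 4.

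Markers of leukocytes and endothelium, which also express several of these adhesion and filament genes, are given beside them. The 15 leukocyte markers summed to 35.0 to 59.0 FPKM in BPA and 28.4 to 142 FPKM in vehicle, with 4 of 15 higher in BPA on average, and Cd3e, Cd3d, Ms4a1, S100a8 and S100a9 were at 0 in at least 1 library. The maximum was again vehicle replicate 4, where the B cell genes Cd79a and Ms4a1 were at 17.1 and 3.35 FPKM, the myeloid gene Lyz2 at 88.4 FPKM and the common leukocyte gene Ptprc at 2.61 FPKM. The other myeloid markers (Cd68, Adgre1, Csf1r, C1qa, C1qb, C1qc, Itgam, S100a8 and S100a9) were each higher in at least 1 other library. Of these, Csf1r and Adgre1 were near their low end there (9.57 and 0.267 FPKM), and Cd68 and C1qa near their high end (2.11 and 5.76 FPKM). Vim, Cd44 and Vcam1 were also highest of the 8 libraries in vehicle replicate 4, as was the keratin gene Krt8 (72.9 FPKM). Lgals3, by contrast, was lowest of the 8 there (5.80 FPKM). The part of the leukocyte markers in the differences of these genes was not tested, beyond the values of Vim, Vcam1, Krt8 and Lgals3 without that library.

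The 9 endothelial markers summed to 38.9 to 87.4 FPKM in BPA and 23.1 to 74.6 FPKM in vehicle. All 9 were higher in BPA on average and none was at 0, yet the mean level did not differ beyond the spread of the libraries (difference 0.44, exact permutation p = 0.257, adjusted p = 0.754). Vehicle replicate 3, the library with the lowest Vcam1, had 24.0 FPKM, and vehicle replicate 4 with the highest Vcam1 of the vehicle group had 23.1 FPKM. The 11 stromal and smooth muscle markers summed to 31.2 to 49.9 FPKM in BPA and 27.8 to 52.9 FPKM in vehicle, and 9 of the 11 were higher in BPA (difference 0.24, exact permutation p = 0.171, adjusted p = 0.754). Collecting duct markers, for the keratins and Lgals3, summed to 181 to 229 FPKM in BPA and 207 to 418 FPKM in vehicle (2 of 9 higher in BPA, difference -0.14, exact permutation p = 0.486, adjusted p = 0.882). The part of these lists in the differences was not tested.

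The other remaining marker lists are given by their sums. Podocyte markers summed to 42.6 to 63.3 FPKM in BPA and 17.4 to 53.1 FPKM in vehicle, distal convoluted tubule markers to 153 to 270 FPKM in BPA and 138 to 223 FPKM in vehicle, and medulla markers to 20.02 to 39.2 FPKM in BPA and 24.6 to 34.6 FPKM in vehicle. Urothelial markers summed to 0.292 to 0.770 FPKM in BPA and 0.181 to 7.58 FPKM in vehicle, and adipocyte markers to 2.38 to 21.3 FPKM in BPA and 3.39 to 296 FPKM in vehicle. The smallest permutation p over the 12 lists was 0.143, for adipocyte markers (adjusted p = 0.754).

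Other genes of tubule injury were read from a list of 40, of which 27 passed the minimum. None passed limma's test over all genes. BPA was above vehicle in 9 and below it in 18, where 48.0% of all tested genes were above, and the median difference was -0.20 against -0.01 for all tested genes. At an unadjusted p under 0.05 there were 2 higher (Prom1 and Anxa1) and 4 lower (Gdf15, Hbegf, Il34 and Tnfrsf12a), or 22.2% of the 27, where 4.18% of all tested genes were higher and 6.83% lower at that p. The list was chosen with earlier results of these data known, so these counts are descriptive and not a test of it. GC content of the longest transcript was 45.8% in Prom1 and 43.6% in Anxa1. It was 61.3% in Gdf15, 51.5% in Hbegf, 57.0% in Il34 and 57.9% in Tnfrsf12a. After the GC correction, 993 of all 13376 genes had an unadjusted limma p under 0.05, against 1473 before it. The effect of that correction on this list was not tested. Gdf15, a stress-induced cytokine, was at 2.33, 2.05, 2.16 and 1.37 FPKM in the BPA libraries and at 7.72, 6.86, 2.55 and 4.48 FPKM in the vehicle libraries (difference -1.03, SE 0.271, limma adjusted p = 0.355). Hbegf, a growth factor that binds the EGF receptor, was at 6.32 ± 1.83 FPKM in BPA and 9.93 ± 1.14 FPKM in vehicle (SD, n = 4 each; difference -0.61, limma adjusted p = 0.372). Il34, a ligand of the macrophage receptor CSF1R, was at 22.2 ± 6.32 FPKM in BPA and 30.9 ± 2.36 FPKM in vehicle (difference -0.50, limma adjusted p = 0.429). For these 3 every BPA library was below every vehicle library, an arrangement in that direction that 4.66% of all tested genes had.

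Prom1, a membrane glycoprotein of scattered tubule cells, had the opposite direction, at 5.004, 3.28, 4.20 and 6.57 FPKM in the BPA libraries and at 3.14, 3.44, 2.10 and 0.867 FPKM in the vehicle libraries. As for Spp1, vehicle replicate 4 was the lowest library. The difference was 0.81 (SE 0.287, limma adjusted p = 0.393). Tnfrsf12a, the receptor of the cytokine TWEAK, had a difference of -0.71 (limma adjusted p = 0.450) and Anxa1, an annexin, of 0.52 (limma adjusted p = 0.451), and both are named for their unadjusted p after their values were seen.

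Genes of the healthy proximal tubule, which a dedifferentiating tubule loses, were read from a list of 26, all of which passed the minimum. None passed limma's test, BPA was above vehicle in 14 and below it in 12, and the median difference was 0.04. At an unadjusted p under 0.05 there was 1 gene (3.85% of the 26), where 4.18% of all tested genes were higher and 6.83% lower. That gene, the phosphate transporter Slc34a3, was at 14.4 ± 1.57 FPKM in BPA and 8.25 ± 4.95 FPKM in vehicle (difference 0.90, limma adjusted p = 0.429), with vehicle replicates 3 and 4 at 4.11 and 3.86 FPKM. Pck1, of gluconeogenesis, was at 567 ± 174 FPKM in BPA and 976 ± 418 FPKM in vehicle (difference -0.74, limma adjusted p = 0.460). The water channel Aqp1 was at 243 ± 41.3 FPKM in BPA and 303 ± 28.3 FPKM in vehicle (difference -0.33, limma adjusted p = 0.469), and Gatm, of creatine synthesis, at 293 ± 46.0 FPKM in BPA and 190 ± 111 FPKM in vehicle (difference 0.80, limma adjusted p = 0.476).

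**Figure D5:**
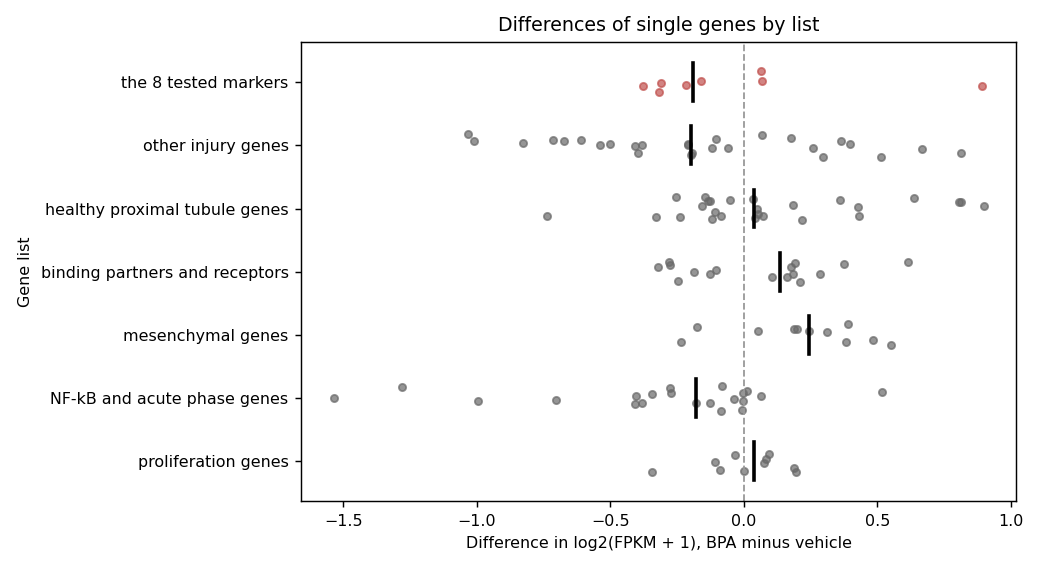
Difference in log2(FPKM + 1), BPA minus vehicle, of single genes in the 8 tested markers (red) and in 6 other lists (grey), with the list median as a black bar; points are spread vertically for display only. The medians are -0.19 for the markers, -0.20 for other injury genes and 0.04 for healthy proximal tubule genes.

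Genes of NF-kB and acute phase signalling, under which Lcn2 and Vcam1 are induced, had 21 of 31 members above the minimum, 3 above and 18 below vehicle in the BPA group (48.0% of all tested genes were above), a median difference of -0.18 against -0.01 for all tested genes, and none passing limma's test over all genes. At an unadjusted p under 0.05 there were 4 lower (Lrg1, Cebpb, Cebpd and Nfkb2) and 1 higher (Cxcl10), or 23.8% of the 21, where 6.83% of all tested genes were lower and 4.18% higher at that p. This list was chosen with earlier results of these data known, so its counts are descriptive and not a test of the list. GC content of the longest transcript was 63.0% in Lrg1, 67.2% in Cebpb, 51.6% in Cebpd, 59.4% in Nfkb2 and 47.1% in Cxcl10. The effect of the GC correction on this list was not tested. Lrg1, a secreted acute phase glycoprotein, was at 2.17, 1.64, 3.27 and 1.85 FPKM in the BPA libraries and at 4.27, 4.49, 4.54 and 8.998 FPKM in the vehicle libraries (difference -0.99, SE 0.236, limma adjusted p = 0.321). All BPA values were below all vehicle values for Lrg1, an arrangement that 4.66% of all tested genes had, and its highest library was vehicle replicate 4. That library was also highest for Cebpd (4.95 FPKM) and Nfkb2 (5.59 FPKM), while Cebpb was highest in vehicle replicate 1 (25.2 FPKM). The part of vehicle replicate 4 in the counts of this list was not tested. The related factors Cebpb and Cebpd had differences of -1.54 (limma adjusted p = 0.365) and -0.70 (limma adjusted p = 0.403), and Nfkb2, a subunit of NF-kB, of -0.40 (limma adjusted p = 0.429). Cxcl10, an interferon-induced chemokine named after its values were seen, had a difference of 0.52 (limma adjusted p = 0.432).

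Mesenchymal genes, beside which Vim is often read, had 11 of 16 members above the minimum, 9 above and 2 below vehicle in the BPA group, and a median difference of 0.24. None had an unadjusted p under 0.05 in limma's test. Among all tested genes 48.0% were above vehicle, with a median of -0.01. Col1a1, Col3a1, Pdgfrb and Acta2 were also among the stromal and smooth muscle markers, so these lists overlap. The collagen gene Col3a1 was at 2.98 ± 0.785 FPKM in BPA and 1.87 ± 1.25 FPKM in vehicle (difference 0.55, limma adjusted p = 0.507). The transcription factor Zeb2 had a difference of 0.24, the matrix protein genes Ctgf and Fn1 of 0.39 and 0.38. Of 22 binding partners and receptors of the 10 markers, 16 passed the minimum, with 9 higher, 7 lower and a median difference of 0.13. Hyal2 (lower) and Itgav (higher), described above, were the 2 with an unadjusted p under 0.05, or 12.5% of the 16. At that p, 4.18% of all tested genes were higher and 6.83% lower. Vldlr, a lipoprotein receptor that binds clusterin, had a difference of 0.28 (limma adjusted p = 0.463).

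Proliferation genes, which rise when the tubule regenerates, had 10 of 18 members above the minimum, with 5 higher, 5 lower and a median difference of 0.04, and none had an unadjusted p under 0.05 in limma's test. The ribonucleotide reductase subunit Rrm2 was at 0.683 ± 0.332 FPKM in BPA and 1.14 ± 0.400 FPKM in vehicle (SD, n = 4 each; difference -0.34, limma adjusted p = 0.511). The replication helicase genes Mcm2, Mcm5 and Mcm4 had differences of 0.19, 0.09 and 0.08.

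The spread of the 10 markers within a group was described as well. The SD in FPKM was larger in vehicle than in BPA for 9 of the 10, Krt18 being the exception, while it was larger in vehicle for 40.7% of all tested genes. Taken relative to the mean, the SD was larger in vehicle for 8 of the 10, Krt18 and Clu (21.9% in BPA, 18.8% in vehicle) being the exceptions. The largest relative spread among the tested markers was that of Spp1 in vehicle, where the SD was 46.4% of the mean, against 16.4% in BPA. Vehicle replicate 4 was the highest or lowest of the 4 vehicle libraries for 9 of the 10 markers, highest for 4 and lowest for 5, and it was so for 52.8% of all tested genes. The SD of log2(FPKM + 1) over all 8 libraries had a median of 0.330 over the 8 tested markers and 0.237 over all tested genes.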

How the data were processed

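Kidney RNA libraries, 4 BPA and 4 vehicle, were compared. The authors deposited FPKM per gene, scaled by gene length and a library size; the deposited values were whole multiples of 1 step per library for 100% of low values (up to 20 reads, within 0.05 reads), which gave the recovered reads. The submitters' processing notes name DESeq2 1.20.0 and GRCm38 with no role, and neither aligner nor counter is given in the sources used here. Columns named for BPA match the labels; the remaining ones, a letter with a number, were read as vehicle because no further group exists, the number being the replicate. No 2 replicates were duplicates (chi-square per degree of freedom of reads 15.5 to 100.2).

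Genes with a mean of at least 0.5 FPKM (13376) entered limma 3.58.1 (R 4.3.3), fitted to log2(FPKM + 1) with trended, robust variance and no covariate; the scale understates changes of low genes. The script was tested on simulated data. Intervals are limma's, at 95%. For marker lists, the mean log2 value went into an exact permutation test (2-sided, 70 assignments, smallest p 0.0286), adjusted over the 12 lists. Near-identical transcripts were sought with blastn 2.17.0 (GENCODE M21, at least 300 bases). Named genes were the 10 markers, up to 4 genes of smallest p per list, and the 3 genes nearest in pattern to the 4 most variable markers (mean of at least 1 FPKM), with binding partners or defining markers a result turns on; Tnfrsf12a, Anxa1 and Cxcl10 were added after their values were seen. The members and lists were chosen with earlier results of these data known. Alternatives covered pseudocounts, filters, scaling, weights, variance models, limma-voom, a replicate block, a term for replicates 1 and 2 against 3 and 4, libraries left out and, added after seeing the data, a GC correction. Same-numbered libraries correlated in their deviations at -0.03 to 0.14 and were not treated as pairs. Python 3.11.15, pandas 2.3.3 and matplotlib 3.10.9 were used otherwise.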

Additional observations from a re-analysis of the deposited data

Results flagged for a closer look

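Vehicle replicate 2 stood apart from the other vehicle libraries in Havcr1, at 3.12 FPKM, with a gap to the next library of 83.7% of the group's range. That library also had the highest sum of urothelial markers, at 7.58 FPKM; their part in its Havcr1 value was not tested. Of 20 groups examined this way, 1 had such a library, and chance gives about 1 in 20.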

How the results depend on the processing

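No alternative changed the count of 0 called markers. The differences of the markers kept their direction in 168 of 174 alternative values, and the 6 others were for Lgals3 BPA replicate 2 left out (-0.039), vehicle replicate 4 left out (-0.12) or both replicates 4 left out (-0.082), for Vcam1 vehicle replicate 3 left out (-0.049) or GC correction (-0.052), and for Vim vehicle replicate 4 left out (0.027); the cause was not tested. The filters, the variance model, protein-coding genes only, the replicate block and the term for replicates leave a difference unchanged by construction. Values under those settings are part of the 174 and could not reverse. With single libraries left out, Lgals3 ran from -0.12 to 0.197, Vcam1 from -0.049 to 0.133 and Vim from -0.32 to 0.027. A pseudocount of 5 shrank low genes by construction, such as Havcr1 to -0.093 and Krt18 to -0.19, and limma-voom gave -0.34 for Havcr1 and 0.21 for Vcam1. A pseudocount of 0.1 gave 0.19 and library weights gave 0.029 for Vcam1. The median over the tested markers ran from -0.26 to -0.10, and each setting moved it by less than 0.104, the SD between libraries of a group of the median mean-centred log2 level of the 10 markers. The variance model, the replicate block and the term for replicates could not move this median. The number of marker lists higher in BPA, 7 of 12, ran from 5 to 7. The count of called genes, 1 of 13376, was 8 with library weights, 2 with the term for replicates 1 and 2 against 3 and 4, and 0 to 4 with a library left out. It was 0 with limma-voom on recovered reads (1508 at an unadjusted p under 0.05) and with protein-coding genes only (1349 of 11550); the cause was not tested. With a replicate block it was 0 (1376 at an unadjusted p under 0.05), the markers called remained 0, and Spp1 had an adjusted p of 0.457. Of the 4 same-numbered pairs, 2 correlated above 0.1, but the highest correlation, 0.194, was between BPA replicate 3 and vehicle replicate 4. The numbers were not taken as pairing. Lcn2 and Cd44 gave values only without a filter. Depth limits Lcn2, with 39 reads over BPA and 41 over vehicle.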
